A study of Homo sapiens with 12 samples.

Results

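Receptors that signal through gp130 were examined together with the leptin receptor and with the transcription factor and the inhibitor downstream of gp130. Their RNA was measured in a breast cancer cell line treated with a progestin after depletion of the chromatin remodeler CHD8. The set held 10 genes chosen by symbol: the receptor genes IL6ST, LIFR, OSMR, IL6R, LEPR, CNTFR and IL11RA, the cytokine gene CLCF1, and SOCS3 and STAT3. Of these, 8 had a probe set annotated to that gene alone, out of 21214 probe sets with at least 1 gene symbol that were tested. LEPR was covered only by a probe set shared with LEPROT, and CLCF1 was not named in the annotation used here, so it is not described further. The genes were picked with the results of these arrays known, and the levels and counts below describe them and do not test the choice.

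The cells were T47D-MTVL, a line derived from the hormone-responsive breast cancer line T47D that carries 1 integrated copy of a luciferase gene under the mouse mammary tumor virus promoter. They were transfected with an siRNA against CHD8 (siCHD8), for which the methods give a single sequence, or with a control siRNA (siCt), and kept without serum for 48 h before 6 h with 10 nM of the synthetic progestin R5020 or its vehicle ethanol (EtOH). The 4 groups were siCHD8 with R5020, siCHD8 with EtOH, siCt with R5020 and siCt with EtOH, with 3 arrays each, labelled as biological replicates. Every value below is a log2 intensity from a whole-transcript gene expression array, a change is the difference of 2 group means on that scale, and a gene was called changed at an adjusted p below 0.05 in the limma fit across all tested probe sets.

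gp130, the product of IL6ST, is the shared signaling chain of the interleukin-6 cytokine family. It pairs with a second chain that sets which ligand is read: LIFR for leukemia inhibitory factor, OSMR for oncostatin M, and the ligand-binding chains IL6R, IL11RA and CNTFR for interleukin-6, interleukin-11 and ciliary neurotrophic factor. Ligand binding activates JAK kinases bound to these chains, which phosphorylate STAT3, and STAT3 induces SOCS3, an inhibitor that binds gp130 and shuts the signal off. In mammary epithelium STAT3 and LIF are known for their part in the regression of the gland after weaning.

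The siRNA target was checked first. CHD8 read 4.77, 4.62 and 4.81 with siCHD8 and R5020, and 5.42, 5.11 and 5.04 with siCHD8 and EtOH. It read 5.52, 5.24 and 5.29 with siCt and R5020, and 5.70, 5.71 and 5.91 with siCt and EtOH. All siCHD8 arrays lay below the siCt arrays of the same treatment, at 65.3% of the siCt level with R5020 and 66.9% with EtOH, although neither difference passed across all probe sets (adjusted p = 0.0627 and 0.0711, limma). The paper reports the depletion of CHD8 by this siRNA separately, by Western blot and RT-qPCR. CHD8 was also called lower with R5020, by changes of -0.46 in siCHD8 cells and -0.42 in siCt cells (adjusted p = 0.0258 and 0.0349, limma). The siCt arrays with R5020 thus overlapped the siCHD8 arrays with EtOH. All 8 luminal breast markers, among them ESR1, GATA3 and KRT8, lay above 4.59, the median of all tested values, by their mean over the 12 arrays, against 1 of 4 basal and mesenchymal, 1 of 6 fibroblast and 0 of 6 blood and endothelial markers. With R5020 the luminal list had 6 of 8 members called lower in siCHD8 cells and 5 of 8 in siCt cells. Over all tested probe sets, 5.43% and 6% were called lower in siCHD8 and siCt cells. The median change of the list was -0.62 and -0.65, beside -0.02 and -0.05 over all tested probe sets. The part of this shift in the changes below was not tested. The arrays measure RNA from all cells of a dish, so a change in the share of responding cells and a change per cell cannot be told apart.

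IL6ST, CNTFR and STAT3 were higher with R5020 under both siRNAs, LIFR was higher with R5020 in siCt cells, and OSMR was lower with R5020 in siCHD8 cells. In siCHD8 cells 3 of the 8 members measured were called higher and 1 lower, where 6.04% and 5.43% of all tested probe sets were called in those directions. In siCt cells 4 of the 8 were called higher and 0 lower, against 8.1% and 6% of all tested probe sets. The median change with R5020 over the 8 genes was 0.12 in siCHD8 cells and 0.44 in siCt cells, beside medians of -0.02 and -0.05 over all tested probe sets. Because the genes were chosen with these changes known, nothing is read from these shares.

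**Figure D1:**
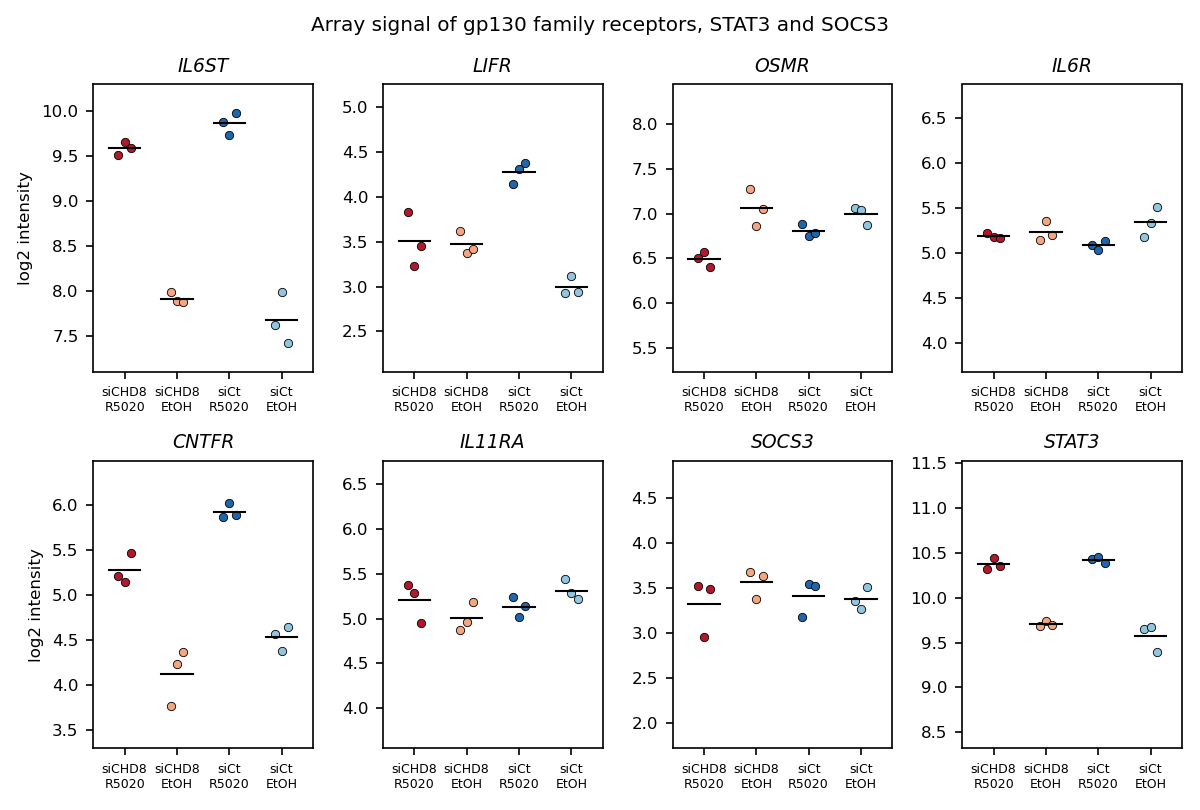
Log2 intensity (vertical axis, the same span for each gene around its own level) of the 8 members on each of the 12 arrays; each point is an array, the groups run from siCHD8 with R5020 at the left to siCt with EtOH at the right, and bars are group means. IL6ST, CNTFR and STAT3 show R5020 arrays above EtOH arrays under both siRNAs, whereas LIFR does so in the siCt groups only and SOCS3 in neither.

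IL6ST, which encodes gp130 itself, had the highest fold change with R5020 among the members. It read 9.52, 9.66 and 9.59 in siCHD8 cells with R5020, against 7.98, 7.89 and 7.87 in siCHD8 cells with EtOH. In siCt cells it read 9.88, 9.74 and 9.98 with R5020, against 7.62, 7.99 and 7.42 with EtOH. The R5020 arrays were thus well above all EtOH arrays, and the EtOH arrays of the siCt cells were the most spread. The change was 1.68 (SE 0.13, 3.19-fold, adjusted p = 5.02e-07, limma) in siCHD8 cells and 2.19 (SE 0.13, 4.58-fold, adjusted p = 2.84e-08) in siCt cells. The group means were 9.59 ± 0.07 and 7.91 ± 0.06 in siCHD8 cells with R5020 and EtOH, and 9.87 ± 0.12 and 7.67 ± 0.29 in siCt cells with R5020 and EtOH (SD, n = 3 each). With R5020 the siCHD8 arrays all lay below the siCt arrays (-0.28, adjusted p = 0.369, limma), while the EtOH arrays of the siRNAs overlapped. Subtracting the siCt response from the siCHD8 response gave -0.52 (95% interval -0.92 to -0.12), which did not pass across all probe sets (adjusted p = 0.49, limma). By RT-qPCR in the same line, the paper reports that the rise of IL6ST mRNA with progestin was severely impaired after CHD8 depletion. It also reports similar effects with a different siRNA against CHD8. The array difference had the same direction, and its not passing does not show that an effect was absent.

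The promoters of IL6ST and LIFR are shown because both genes responded to R5020 in siCt cells while only IL6ST was called in siCHD8 cells. Each window covers 250 bases before to 50 bases after a transcript start in RefSeq (GRCh38.p14), printed 5′ to 3′ on the strand of the gene. The windows were searched on both strands for TGTTCT, the core half-site shared by progesterone and glucocorticoid receptors, for ACANNNTGT, the core of the palindrome these receptors bind, and for TTCNNNGAA, the core of STAT sites. The receptor motifs can overlap each other. Capitals mark the matches. IL6ST has 1 window, chr5:55994914-55995213 on the minus strand, with 72.7% G and C and no match to any of the 3 motifs.
IL6ST: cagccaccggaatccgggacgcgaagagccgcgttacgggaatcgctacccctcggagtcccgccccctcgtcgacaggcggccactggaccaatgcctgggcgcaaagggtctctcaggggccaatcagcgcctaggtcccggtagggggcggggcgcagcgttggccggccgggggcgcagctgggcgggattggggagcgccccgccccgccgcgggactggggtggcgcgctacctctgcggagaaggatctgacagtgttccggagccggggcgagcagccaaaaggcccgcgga

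LIFR, the receptor chain for leukemia inhibitory factor and partner of gp130, also lies on chromosome 5 and has 3 windows on the minus strand. The first, chr5:38595356-38595655 (47.3% G and C), holds 1 STAT core, TTCCTTGAA, at position -165 from the start. The second, chr5:38557418-38557717 (42.3% G and C), holds another, TTCATCGAA, at -182, and AGAACA, which is TGTTCT on the other strand, at -8. The third, chr5:38556597-38556896 (81.7% G and C), holds none of the 3.
LIFR window 1: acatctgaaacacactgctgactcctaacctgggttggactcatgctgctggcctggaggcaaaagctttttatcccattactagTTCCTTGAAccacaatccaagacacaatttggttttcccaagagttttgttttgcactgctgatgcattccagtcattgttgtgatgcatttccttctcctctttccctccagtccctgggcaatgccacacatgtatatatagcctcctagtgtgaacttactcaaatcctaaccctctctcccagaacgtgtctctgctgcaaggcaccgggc
LIFR window 2: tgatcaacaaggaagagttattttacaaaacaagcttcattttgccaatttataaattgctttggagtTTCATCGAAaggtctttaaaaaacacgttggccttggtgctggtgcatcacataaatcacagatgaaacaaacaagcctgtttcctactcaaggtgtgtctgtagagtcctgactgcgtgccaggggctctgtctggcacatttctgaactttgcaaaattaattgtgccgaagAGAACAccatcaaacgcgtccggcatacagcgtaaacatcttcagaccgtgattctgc
LIFR window 3: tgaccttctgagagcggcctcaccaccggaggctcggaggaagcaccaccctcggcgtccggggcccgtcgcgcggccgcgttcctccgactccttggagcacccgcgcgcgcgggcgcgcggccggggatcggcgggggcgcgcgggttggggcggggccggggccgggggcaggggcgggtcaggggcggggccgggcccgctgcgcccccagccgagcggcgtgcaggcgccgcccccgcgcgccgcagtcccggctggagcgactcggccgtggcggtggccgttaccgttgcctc
These motifs are common: 7.7% of the 35116 RefSeq windows of this length hold TTCNNNGAA, 14.8% hold TGTTCT and 5.4% hold ACANNNTGT. Of the other members, only the IL6R window held a match, 1 TGTTCT, and the windows of OSMR, CNTFR, IL11RA, SOCS3, STAT3 and LEPR held none. A match is a run of letters and not a measured site, and receptor binding was not measured by these arrays. The windows hold only bases close to transcript starts. The paper reports progesterone receptor and CHD8 binding at an enhancer upstream of IL6ST, which was not searched for motifs here. A window without a match therefore does not speak for the whole gene.

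LIFR changed with R5020 in siCt cells and not detectably in siCHD8 cells. It read 3.83, 3.23 and 3.46 in siCHD8 cells with R5020, against 3.62, 3.37 and 3.41 in siCHD8 cells with EtOH, and these arrays overlapped. In siCt cells it read 4.14, 4.31 and 4.38 with R5020, against 2.92, 3.11 and 2.94 with EtOH, with no overlap. The change was 0.04 (SE 0.14, adjusted p = 0.928, limma) in siCHD8 cells and 1.28 (SE 0.14, 2.43-fold, adjusted p = 1.28e-05) in siCt cells. The response was smaller in siCHD8 cells by a log2 difference of -1.25 (95% interval -1.67 to -0.82). Its unadjusted p was the lowest of all 21214 probe sets, yet the adjusted p was 0.356, and no probe set passed this contrast. The difference had 2 sides: with R5020, LIFR was lower in siCHD8 than in siCt cells (-0.77, 58.6% of the siCt level, adjusted p = 0.0443), and with EtOH all 3 siCHD8 arrays lay above the siCt arrays (0.48, adjusted p = 0.172).

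The LIFR values came with a limit of level and of array number. All 12 LIFR values lay below the median of all tested values, so a filter on dim probe sets removed the gene. Leaving out array 1 of siCHD8 with R5020, at 3.83 the highest of its group, gave a difference between the responses of -1.41 with an adjusted p of 0.037. The lower level with R5020 kept its sign when each array was left out (-0.93 to -0.63), and its adjusted p ran between 0.00882 and 0.208 over the 22 alternatives, 11 of which lost the call.

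**Figure D2:**
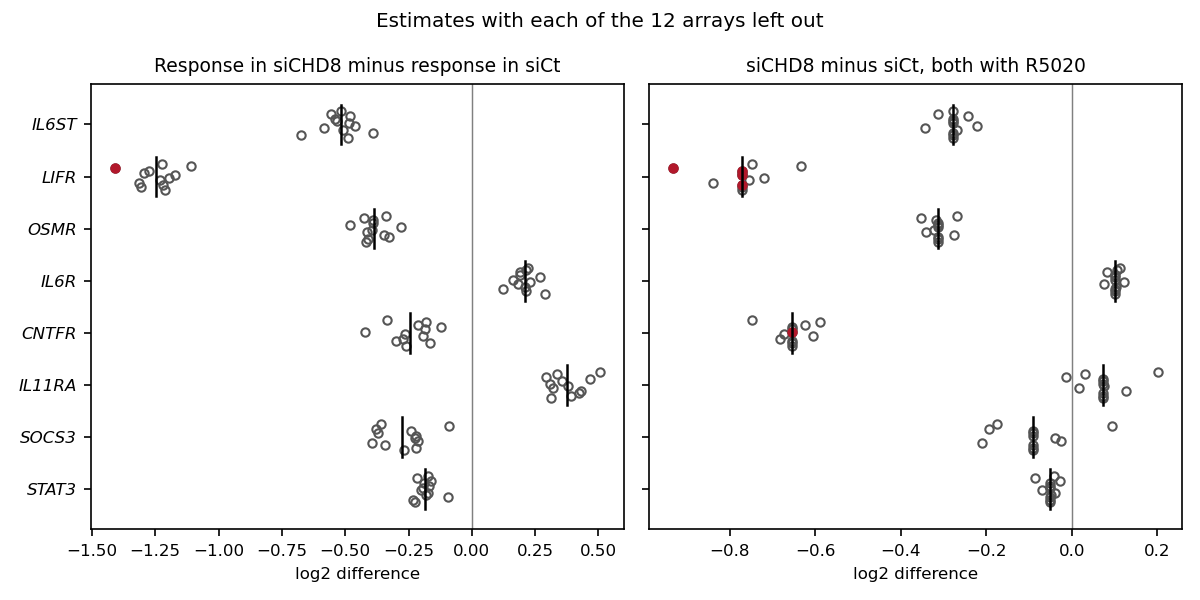
Log2 difference (horizontal axes) of each member with each array left out in turn, for the R5020 response in siCHD8 minus that in siCt cells (left) and for siCHD8 minus siCt with R5020 (right); black bars show the value with all 12 arrays, red points an adjusted p below 0.05 and open points one above it. LIFR at the left is below -1 at every point and red at 1 of them, and LIFR and CNTFR at the right have both red and open points.

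OSMR, the chain that joins gp130 in the receptor for oncostatin M, is the neighbor of LIFR on chromosome 5 and was lower with R5020 in siCHD8 cells. It read 6.50, 6.57 and 6.40 in siCHD8 cells with R5020, against 7.27, 6.87 and 7.05 with EtOH. In siCt cells it read 6.88, 6.75 and 6.79 with R5020, against 7.06, 7.04 and 6.87 with EtOH. The siCHD8 arrays with R5020 were the lowest of the 12, below every array of the other groups. OSMR fell to 67.5% of the EtOH level in siCHD8 cells (-0.57, SE 0.12, adjusted p = 0.00406, limma), whereas the change of -0.18 in siCt cells did not pass (adjusted p = 0.33). The siCHD8 response lay below the siCt response by a log2 difference of -0.38 (95% interval -0.74 to -0.03, adjusted p = 0.508), so a response confined to siCHD8 cells was not shown.

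The genes on either side were compared as a description of the 2 loci. Next to IL6ST, the germ cell helicase DDX4, the interleukin-31 receptor IL31RA, ANKRD55 and the kinase MAP3K1 had changes between -0.12 and 0.15 with R5020 under either siRNA, and none passed. Beyond OSMR, RICTOR, a subunit of the mTORC2 kinase complex, was lower with R5020 in siCHD8 cells (-0.41, adjusted p = 0.0282, limma) and had a change of 0.08 in siCt cells. Its difference between the responses was -0.49 (adjusted p = 0.49). On the other side of LIFR, EGFLAM had changes of 0.04 and -0.09 in siCHD8 and siCt cells, neither of which passed.

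CNTFR, the membrane-anchored receptor that presents ciliary neurotrophic factor to gp130 and LIFR, was higher with R5020 under both siRNAs. It read 5.22, 5.15 and 5.47 in siCHD8 cells with R5020, against 3.76, 4.24 and 4.37 with EtOH. In siCt cells it read 5.88, 6.03 and 5.89 with R5020, against 4.57, 4.38 and 4.65 with EtOH. The group means were 5.28 ± 0.17 and 4.12 ± 0.32 in siCHD8 cells with R5020 and EtOH, and 5.93 ± 0.08 and 4.53 ± 0.14 in siCt cells with R5020 and EtOH (SD, n = 3 each). No array overlapped between any 2 of the 4 groups, although the highest siCHD8 array with EtOH and the lowest siCt array with EtOH nearly met, at 4.37 and 4.38. The change with R5020 was 1.16 (SE 0.15, 2.23-fold, adjusted p = 6.87e-05, limma) in siCHD8 cells and 1.40 (SE 0.15, 2.64-fold, adjusted p = 8.95e-06) in siCt cells. The siCHD8 response minus the siCt response was -0.24 (95% interval -0.69 to 0.20). Unlike LIFR, CNTFR had siCHD8 arrays below the siCt arrays with either treatment, with differences of -0.65 with R5020 and -0.41 with EtOH, neither of which passed (adjusted p = 0.0893 and 0.27).

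The receptors that bind interleukin-6 and interleukin-11 showed no called change. IL6R had group means of 5.19 ± 0.03 and 5.24 ± 0.11 in siCHD8 cells with R5020 and EtOH, and 5.09 ± 0.05 and 5.34 ± 0.17 in siCt cells with R5020 and EtOH (SD, n = 3 each). The 3 siCt arrays with R5020 (5.10, 5.04 and 5.13) lay below those with EtOH (5.18, 5.33 and 5.52), but the change of -0.25 did not pass (adjusted p = 0.141, limma). IL11RA had means of 5.20 ± 0.23 and 5.01 ± 0.16 in siCHD8 cells with R5020 and EtOH, and 5.13 ± 0.11 and 5.31 ± 0.11 in siCt cells with R5020 and EtOH. Its changes with R5020 pointed in opposite directions, 0.20 in siCHD8 cells and -0.18 in siCt cells, and the difference between them was 0.38 (95% interval -0.02 to 0.77). The probe set shared by LEPROT and LEPR, the leptin receptor, had changes of -0.05 in siCHD8 cells and 0.27 in siCt cells, neither of which passed, and the signal cannot be assigned to either gene.

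STAT3, the transcription factor that gp130 activates, was higher with R5020 under both siRNAs. It read 10.32, 10.44 and 10.35 in siCHD8 cells with R5020, against 9.69, 9.74 and 9.69 with EtOH. In siCt cells it read 10.43, 10.45 and 10.39 with R5020, against 9.66, 9.67 and 9.39 with EtOH. The change was 0.67 (SE 0.10, 1.59-fold, adjusted p = 0.000369, limma) in siCHD8 cells and 0.85 (SE 0.10, 1.80-fold, adjusted p = 3.12e-05) in siCt cells. Under R5020 the siCHD8 and siCt arrays overlapped, and the response differed by -0.18, siCHD8 minus siCt (95% interval -0.49 to 0.12).

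SOCS3, the feedback inhibitor that STAT3 induces, was not called in any contrast. It read 3.53, 2.96 and 3.49 in siCHD8 cells with R5020, against 3.68, 3.38 and 3.64 with EtOH, and 3.18, 3.55 and 3.52 in siCt cells with R5020, against 3.36, 3.27 and 3.51 with EtOH. The arrays of all 4 groups overlapped. The changes with R5020 were -0.24 (SE 0.16, adjusted p = 0.42, limma) in siCHD8 cells and 0.04 (SE 0.16, adjusted p = 0.91) in siCt cells. All 12 values were below the median of all tested values.

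**Figure D3:**
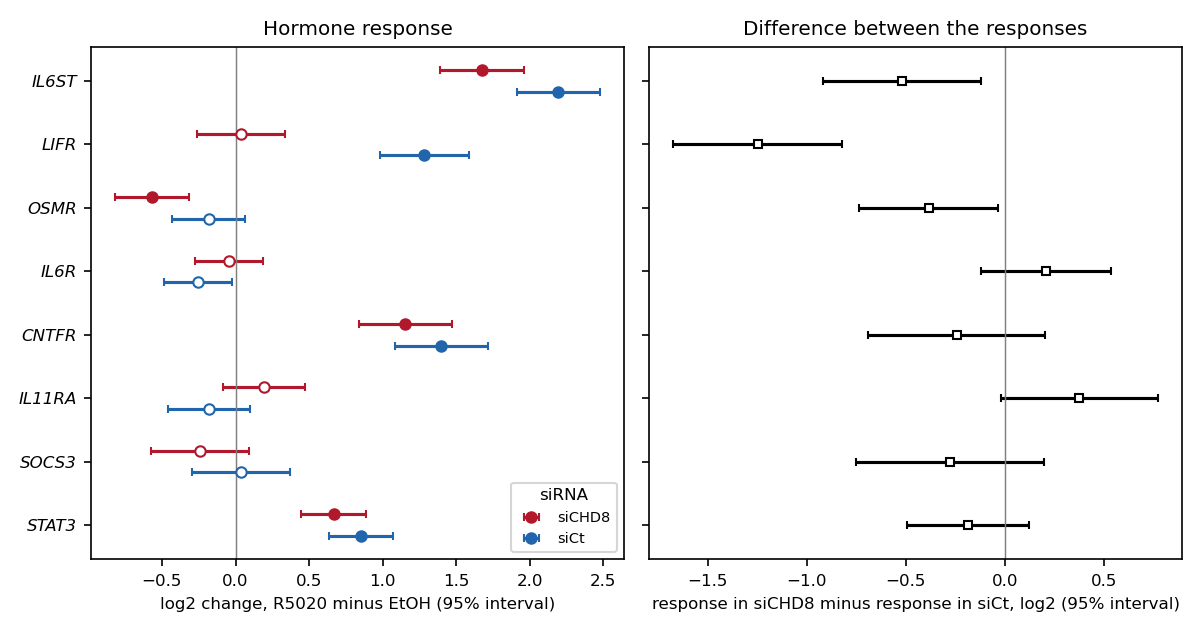
Left, change with R5020 against EtOH (log2, 95% interval) of the 8 members in siCHD8 cells (red, upper) and siCt cells (blue, lower), filled where the adjusted p was below 0.05; right, the difference between the responses, siCHD8 minus siCt. The interval of LIFR at the right, -1.67 to -0.82, is the farthest from 0, and those of IL6ST and OSMR also exclude 0 without passing across all probe sets.

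The question of the design was whether CHD8 depletion altered the response to progestin. For the difference between the responses 0 of the 8 members were called, as were 0% of all tested probe sets by limma, and 9.56% of the probe sets had an unadjusted p below 0.05. Among the members LIFR, IL6ST and OSMR had such a p. The median difference over the 8 genes was -0.26, beside 0.01 over all tested probe sets. Expressed as the R5020-to-EtOH ratio in siCHD8 cells divided by that in siCt cells, the members called in siCt cells had values of 0.421 for LIFR, 0.698 for IL6ST, 0.845 for CNTFR and 0.880 for STAT3. All 4 values were below 1, and the intervals of CNTFR and STAT3 included it. These ratios divide by the siCt response that was used to list the genes, so their direction is not independent of that choice. The paper set limits on this same ratio to call a gene CHD8-dependent, and it reports many such genes among its progestin-regulated ones. That rule is unlike the adjusted p used here, so the counts cannot be set side by side.

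The siRNAs were also compared within each treatment. With R5020, 1 of the 8 genes was called lower, LIFR, where 0.156% of all tested probe sets were, and 0 were called higher, where 0.033% were. Arrays did not overlap between siCHD8 and siCt with R5020 for 5 of the 8, with IL6ST, LIFR, OSMR and CNTFR lower and IL6R higher, while 27.6% of all tested probe sets were free of overlap. With EtOH, 0 of the 8 were called, against 0.292% of probe sets by limma, and 12.1% of the probe sets had an unadjusted p below 0.05. LIFR and STAT3 lay higher without overlap and CNTFR and IL11RA lower, so 4 of the 8 were free of overlap, against 13.7% of all tested probe sets. The median effect of siCHD8 over the 8 genes was -0.18 with R5020 and 0.10 with EtOH, beside 0.01 and -0.01 over all tested probe sets.

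The ligands and the other receptors of the family were counted in the same way. Of 9 measured ligand genes, among them IL6, LIF, OSM and IL11, 0 were called in siCHD8 cells, and 1 was called in siCt cells, CTF1, which encodes cardiotrophin and was lower (-0.41, adjusted p = 0.0146, limma), where 5.43% and 6% of all tested probe sets were called lower in siCHD8 and siCt cells. IL6 averaged 1.96 ± 0.10 and 1.82 ± 0.12 in siCHD8 cells with R5020 and EtOH, and 1.70 ± 0.11 and 1.77 ± 0.25 in siCt cells with R5020 and EtOH (SD, n = 3 each). The median change of the ligands with R5020 was -0.06 in siCHD8 cells and -0.19 in siCt cells, beside -0.02 and -0.05 over all tested probe sets. By the mean over the 12 arrays, 1 of the 9 ligands lay above the median of all tested values. The 5 further receptors of the gp130 type, IL31RA, IL27RA, IL12RB2, IL23R and CSF3R, had 0 calls with R5020. Over all tested probe sets, 6.04% were called higher and 5.43% lower in siCHD8 cells, and 8.1% and 6% in siCt cells. With shares this low, nothing is read from 0 calls among 5 genes. The 12-array means of all 5 lay below the median of all tested values, with IL27RA close to it and above it on some arrays.

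Among the kinases and adaptors that carry the signal, 4 of 9 were called higher with R5020 and 2 lower in siCHD8 cells, and 3 were called higher and 1 lower in siCt cells. Over all tested probe sets, 6.04% were called higher and 5.43% lower in siCHD8 cells, and 8.1% and 6% in siCt cells. Their median change was 0.27 in siCHD8 cells and 0.21 in siCt cells, beside -0.02 and -0.05 over all tested probe sets. JAK2, a kinase bound to gp130, read 5.29, 5.20 and 5.35 in siCHD8 cells with R5020, against 3.85, 3.39 and 3.26 with EtOH. In siCt cells JAK2 read 5.73, 5.69 and 5.93 with R5020, against 3.60, 3.63 and 3.56 with EtOH. The change in JAK2 was 1.78 (SE 0.14, adjusted p = 3.77e-07, limma) in siCHD8 cells and 2.19 (SE 0.14, adjusted p = 3.76e-08) in siCt cells. GRB2 and SOS1, the adaptor and exchange factor that lead to RAS, were also higher, by 0.85 and 0.60 in siCHD8 cells and by 1.13 and 0.66 in siCt cells. GAB1, a docking protein of the same branch, fell to 51.1% of the EtOH level in siCHD8 cells and to 64.0% in siCt cells by its brighter probe set. A dimmer GAB1 probe set had changes of -0.31 and -0.47, of which the second, in siCt cells, passed. TYK2 was higher and JAK3 lower in siCHD8 cells (0.53 and -0.52). Their changes of 0.12 and -0.18 in siCt cells had the same directions and did not pass. The differences between the responses, 0.40 for TYK2 and -0.34 for JAK3, did not pass either. JAK1, the kinase most tied to gp130, had changes of 0.22 and 0.21 that did not pass.

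Among the other STAT genes the 2 STAT5 genes were higher and STAT6 lower under both siRNAs. STAT5A, known for its role in milk protein expression, read 5.71, 5.56 and 5.77 in siCHD8 cells with R5020, against 3.87, 3.78 and 3.39 with EtOH. In siCt cells STAT5A read 5.61, 5.46 and 5.43 with R5020, against 3.56, 3.48 and 4.15 with EtOH. The change was 2.00 (SE 0.17, 4.01-fold, adjusted p = 8.18e-07, limma) in siCHD8 cells and 1.77 (SE 0.17, 3.41-fold, adjusted p = 2.65e-06) in siCt cells. STAT5B, which neighbors STAT5A and STAT3 on chromosome 17, had changes of 0.59 and 0.65, and STAT6, the interleukin-4 factor, of -0.68 and -0.79, in siCHD8 and siCt cells, all called.

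Of 14 measured inhibitor genes other than SOCS3, 1 was lower in siCHD8 cells and 2 in siCt cells with R5020 and 0 were higher, beside 5.43% and 6% of all tested probe sets called lower. Their median changes were -0.03 and -0.14, beside -0.02 and -0.05 over all tested probe sets. CISH, the SOCS family member that STAT5 induces, fell by 0.45 in siCHD8 cells (adjusted p = 0.0415, limma) and by 0.98 in siCt cells (adjusted p = 0.000103), and the SUMO ligase PIAS1 fell by 0.40 in siCt cells. Of 18 genes that STAT3 is known to activate, 6 were called higher and 1 lower under each siRNA, where 6.04% and 5.43% of all tested probe sets were called higher and lower in siCHD8 cells and 8.1% and 6% in siCt cells. The median change of the list was 0.08 in siCHD8 cells and 0.23 in siCt cells, beside -0.02 and -0.05 over all tested probe sets. CEBPD, a transcription factor of mammary involution, rose 2.33-fold in siCHD8 cells and 2.99-fold in siCt cells, and the repressor BCL6 rose 2.05-fold and 1.67-fold in siCHD8 and siCt cells. The survival gene BCL2L1 was higher under both siRNAs, by 0.55 in siCHD8 cells and 0.59 in siCt cells. VEGFA, the vascular growth factor, changed by 0.67 in siCHD8 cells, where it was called, and by 0.38 in siCt cells, where it was not. SERPINA3, an acute-phase protease inhibitor, changed by -0.13 in siCHD8 cells and by 0.70 in siCt cells, where it was called, and the difference between the responses did not pass. BCL3, a cofactor of NF-kappaB, was lower under both siRNAs, with changes of -0.79 in siCHD8 cells and -0.88 in siCt cells. ADAM10 and ADAM17, proteases that shed IL6R from the cell surface, were not called. No gene of these lists was called for the difference between the responses or for either siRNA effect.

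**Figure D4:**
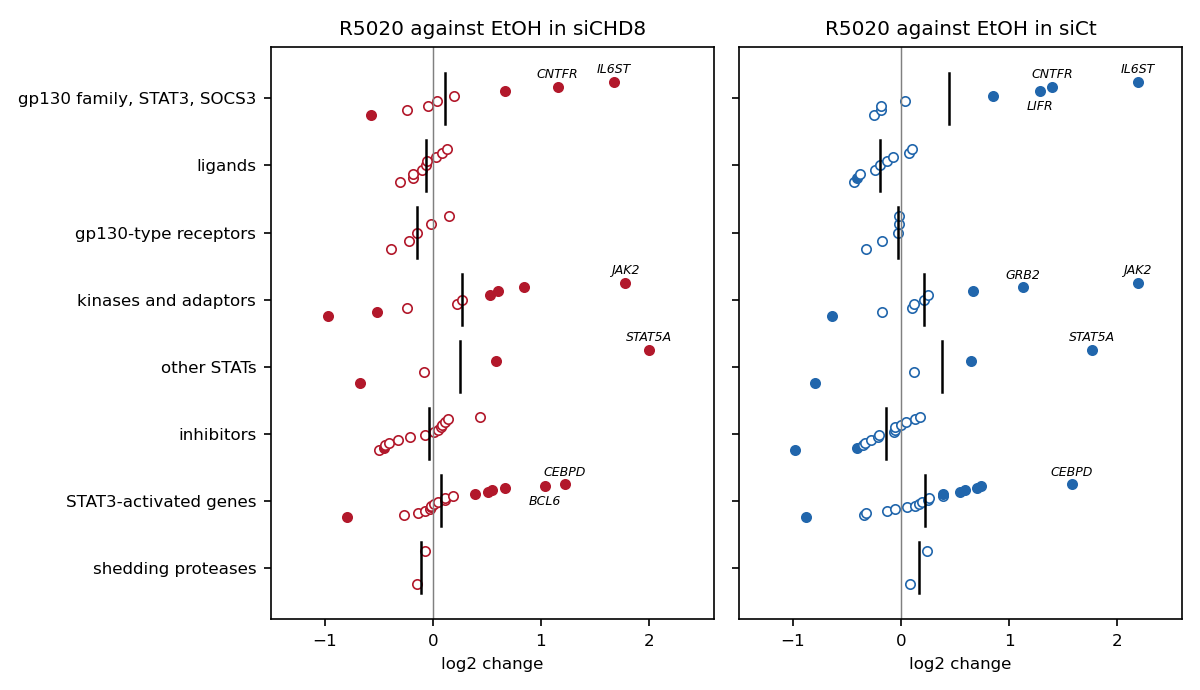
Change with R5020 against EtOH (log2, horizontal axis) of the members and of each pathway list in siCHD8 cells (left) and siCt cells (right); each point is a gene, filled at an adjusted p below 0.05, vertical bars are list medians, points are offset vertically for legibility, and genes with a change above 1 are named. IL6ST, JAK2 and STAT5A lie farthest to the right under both siRNAs.

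The probe sets most like IL6ST and LIFR over the 12 arrays were found by Pearson's r among those whose range of group means was at least 0.5 of the member's. For IL6ST, 606 probe sets were eligible and the 5 highest r lay between 0.992 and 0.995. They belonged to TIPARP, a mono-ADP-ribosyltransferase, SRGAP1, a GTPase-activating protein, STX18, a syntaxin, ATP1B1, a sodium pump subunit, and NCALD, a calcium sensor. Their changes with R5020 ran between 1.47 and 2.30 in siCHD8 cells and between 1.72 and 2.84 in siCt cells. For LIFR, 2237 probe sets were eligible and the 5 highest r, for ZNF542P, ZNF569, NOL8, NSUN2 and EPGN, lay between 0.897 and 0.919. These 5 had changes between 0.10 and 0.32 in siCHD8 cells and between 0.65 and 1.09 in siCt cells. The arrays share the 4 group means, so these values of r describe like group patterns, and they carry no test.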

How the data were processed

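Human Gene 1.0 ST arrays (Affymetrix) were used for the RNA of 12 samples. The values deposited by the authors were log2 intensities per probe set, summarised and normalised by RMA, and their scaling was kept. Because RMA equalises the arrays (medians 4.52 to 4.62), a shift common to all genes could not be seen. Of 33297 probe sets, the platform annotation gave 19461 a single symbol and 1753 more than 1, and these 21214 were tested, while 12083 had no symbol. Each gene was represented by its brightest probe set with that symbol alone. A mean per group was fitted on all 12 arrays with limma (version 3.58.1, R 4.3.3), with 5 contrasts and Benjamini-Hochberg adjustment over all tested probe sets. Intervals are 95%. The fit was tested on simulated data. Python 3.11.15, pandas 2.3.3 and matplotlib 3.10.9 were used for sequences and plots.

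The 10 genes and the pathway and marker lists were chosen with earlier results of these data known. The genes named were all 10 members, CHD8, and, of each pathway list, at most 6 past an adjusted p of 0.05, plus JAK1, JAK2 and TYK2. Other genes named (chromosome neighbors, those most like IL6ST and LIFR, list members at low level) follow from a stated rule or complete a list. The number of arrays, 3 per group, limits the precision: the median SE was 0.13 for a contrast of 2 groups and 0.19 for the difference between responses. Nothing in the sources says that the replicates were separate transfections beyond the label biological, so p-values measure the spread between these arrays. Alternatives were other scalings, a dim filter, other sets of probe sets, variance priors, array weights, fits of the compared groups only, a block for the replicate number, other limits, and each array left out. The promoter windows came from RefSeq (GRCh38.p14).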

Additional observations from a re-analysis of the deposited data

How the results depend on the processing

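Of 902 member changes under the alternatives, 873 kept their direction and their side of the limit, 11 lost a call, 6 gained one and 12 changed sign, none of them called. The 4 calls with R5020 under each siRNA held with each array left out (4 to 4), and the siRNA effect with EtOH gave 0 to 0. OSMR with R5020 in siCHD8 cells, with a fold under 1.5, dropped out at both limits that require that fold, leaving 3 calls, and the dim filter, which removes LIFR, left 3 calls in siCt cells. For the difference between the responses, the count ran between 0 and 1 with each array left out and was 1 (LIFR) at an unadjusted p under 0.01 and fold over 1.5. For siCHD8 against siCt with R5020, the count ran between 0 and 2. It was 0 with all probe sets tested (LIFR adjusted p = 0.144) and at an adjusted p under 0.01 and fold over 1.5, and 2 (LIFR and CNTFR) with array weights, at the unadjusted limit, and with siCHD8 EtOH replicate 1 and siCt EtOH replicate 3 both left out, a choice made after seeing the data. With the replicate block it was 0 (LIFR adjusted p = 0.0981); the block changed none of the other 4 counts. Same-numbered arrays did not deviate together (r -0.25 to 0.20, over 0.1 for 4 of 18 pairs, 1 of 12 arrays closest to its own number), so the numbers were not taken as pairs. The LIFR call was lost without siCt R5020 replicate 1, 2 or 3, siCHD8 R5020 replicate 2 or 3, siCt EtOH replicate 1 or 2, or siCHD8 EtOH replicate 2, and with the compared groups alone. CNTFR was called there and with dim probe sets left out (11202 kept). The cause was not tested.

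Signs changed with single arrays left out for LIFR (-0.12 to 0.17) and IL6R (-0.092 to 0.016) with R5020 in siCHD8 cells and for SOCS3 in siCt cells (-0.030 to 0.15). For siCHD8 against siCt they changed with R5020 for IL11RA (-0.013 to 0.20) and SOCS3 (-0.21 to 0.094), and with EtOH for OSMR (-0.033 to 0.17). OSMR with EtOH was also -0.040 with array weights and -0.091 with the 2 arrays above left out, and IL6R was 0.025 there.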
